A study of Mus musculus with 6 samples.

Results

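Kinesins are motor proteins that use ATP to act on microtubules, and in the mouse their genes carry the symbols Kif and Kifc. The family was taken as every gene whose symbol in the platform annotation starts with Kif or Kifc followed by a digit, which gave 39 of the 19505 genes measured. Of these, 15 were classed as mitotic kinesins, 15 as transport kinesins, 5 as kinesins of cilia and signalling, and 4 as other symbols, among them the pseudogene Kif4-ps. Total RNA of RAW264.7 cells, a mouse macrophage line, was hybridised to 6 Affymetrix arrays after 3 days of culture. The cells had been seeded on a modified polyetheretherketone (PEEK) surface (3 arrays) or on the pristine polymer, which was the control (3 arrays). PEEK is a plastic used in bone implants, and the labels do not describe the modification. Both groups were the same cell line, so the results describe a transformed, dividing macrophage line and not macrophages taken from tissue.

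Mitotic kinesins build the bipolar spindle, move and shorten the microtubules that hold chromosomes, and organise the central spindle where the cell divides. Their transcripts are known to accumulate towards mitosis and to be low in resting cells. Transport kinesins carry vesicles, lysosomes, mitochondria and protein complexes along microtubules in cells that divide and cells that do not, and several of them are used mainly in neurons.

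Of the 39 kinesin genes, 13 rose and 1 fell on modified PEEK (limma, adjusted p under 0.05), where 10.4% of all genes passed in either direction. Of the 15 mitotic kinesin genes, 12 rose and 0 fell (0 also at an unadjusted p under 0.05), where 5.24% of all genes rose and 5.15% fell. Of the 15 transport kinesin genes, 0 rose (1 at an unadjusted p under 0.05, Kifc3) and 1, Kif3a, fell (3 at an unadjusted p under 0.05, Kif3a, Kif3b and Kifc2). Over all 19505 genes, 2206 were higher and 2218 lower at an unadjusted p under 0.05. The median log2 change, modified minus pristine PEEK, was 1.20 for the mitotic genes and -0.0009 for the transport genes, beside 0.0088 for all genes. In RNA from whole cultures, more cells in mitosis and more transcript per cell cannot be told apart. These medians and counts are descriptions, and the difference between the classes was not tested as such. Scaling the arrays to their poly-A spikes adds 0.25 to every change, which turns negative differences of less than that size positive. The groups did not overlap for 17 kinesin genes with modified PEEK higher and 5 with it lower, beside 28.8% of all genes in either direction.

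The expression signals were deposited as log2 values between 0.941 and 12.4, with array medians over genes of 4.98 to 5.10. Over genes, which are no replicates, arrays of 1 surface correlated at 0.991 to 0.995 and arrays of different surfaces at 0.985 to 0.988. A background of 3.72 log2 was taken from the genes of 1412 odorant and pheromone receptors, which macrophages mostly do not use. Above it on at least 1 surface lay 34 of the 39 kinesin genes and 13229 of all 19505 genes. All 8 measured macrophage markers lay above this background. Their summed log2 signals were 13.84 to 13.87 on modified PEEK and 13.88 to 13.90 on pristine PEEK, without overlap. Of the 8, 1 was higher and 2 were lower by limma, where 10.4% of all genes passed in either direction. Of the fibroblast, T cell, B cell, epithelial, endothelial and neuronal markers, 0 differed between the surfaces, and their highest mean was that of Col1a1 at 5.90. Some of them also lay above the background: 2 of 3 fibroblast, 2 of 3 T cell, 1 of 1 B cell, 2 of 3 epithelial, 0 of 2 endothelial and 1 of 3 neuronal markers. The labels call the cultures triplicates without saying that they were separate experiments. The p-values thus weigh a difference against a spread that may be technical, and with 3 arrays per surface the precision is limited.

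Promoter stretches are shown for the 8 mitotic kinesin genes that rose and hold the short sequence TTTGAA within the stretch. These 8 were thus picked by the motif, and Kif14, Kif2c and Kif18a, which rose without it there, are not shown. Stretches of Kif24, Kif2a and Kif3a stand beside them. Short sequences known from cell-cycle promoters are marked. The CHR (cell cycle genes homology region) is a site near the start of many genes expressed in G2 and mitosis, read by the DREAM and MYB-MuvB complexes, and it is often preceded by CCAAT boxes, which NF-Y binds. Each line runs 5′ to 3′ on the strand of the gene, from 90 bases before the RefSeq transcription start site to 30 bases from it (120 bases, GRCm38.p6). Capitals mark matches to TTTGAA or TTCGAA, the CHR forms searched, and to CCAAT, on either strand, so that TTCAAA and ATTGG are the same motifs read on the other strand.
Kif11: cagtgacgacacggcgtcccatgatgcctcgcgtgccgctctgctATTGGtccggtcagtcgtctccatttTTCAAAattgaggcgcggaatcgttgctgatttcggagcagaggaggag
Kif15: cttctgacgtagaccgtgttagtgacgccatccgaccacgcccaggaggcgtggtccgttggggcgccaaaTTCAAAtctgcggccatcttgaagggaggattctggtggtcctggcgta
Kif22: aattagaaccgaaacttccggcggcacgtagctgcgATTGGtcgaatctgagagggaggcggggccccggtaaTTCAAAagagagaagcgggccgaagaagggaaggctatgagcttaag
Kif4: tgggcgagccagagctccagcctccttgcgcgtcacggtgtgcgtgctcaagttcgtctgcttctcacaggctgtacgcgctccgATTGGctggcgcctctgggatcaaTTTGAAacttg
Kif20b: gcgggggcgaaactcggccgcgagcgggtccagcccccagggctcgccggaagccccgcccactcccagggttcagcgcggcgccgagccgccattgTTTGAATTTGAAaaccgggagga
Kif23: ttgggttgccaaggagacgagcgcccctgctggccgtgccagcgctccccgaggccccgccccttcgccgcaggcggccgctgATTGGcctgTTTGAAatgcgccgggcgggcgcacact
Kif18b: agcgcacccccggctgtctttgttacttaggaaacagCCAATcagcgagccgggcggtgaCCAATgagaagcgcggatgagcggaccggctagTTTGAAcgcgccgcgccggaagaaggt
Kifc1: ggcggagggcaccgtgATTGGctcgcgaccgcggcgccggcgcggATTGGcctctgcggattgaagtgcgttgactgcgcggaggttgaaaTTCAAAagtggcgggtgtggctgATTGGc
Kif24: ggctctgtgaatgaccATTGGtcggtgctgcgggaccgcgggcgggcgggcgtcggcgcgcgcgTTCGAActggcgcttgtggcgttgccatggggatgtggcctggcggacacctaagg
Kif2a: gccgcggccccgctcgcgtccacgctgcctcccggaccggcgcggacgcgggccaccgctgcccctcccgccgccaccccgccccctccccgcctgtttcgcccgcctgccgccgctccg
Kif3a: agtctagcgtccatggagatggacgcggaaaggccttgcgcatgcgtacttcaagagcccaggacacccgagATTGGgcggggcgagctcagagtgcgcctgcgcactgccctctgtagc
The stretches lie at chr19:37376292-37376411 (plus strand) for Kif11, chr9:122950991-122951110 (plus) for Kif15, chr7:127042391-127042510 (minus) for Kif22, chrX:100625975-100626094 (plus) for Kif4 and chr19:34922268-34922387 (plus) for Kif20b. Those of Kif23, Kif18b and Kifc1 lie on the minus strand at chr9:61946770-61946889, chr11:102925095-102925214 and chr17:33890604-33890723. The last lines are Kif24 (chr4:41464819-41464938, minus), which rose outside the mitotic class, Kif2a (chr13:107022085-107022204, minus), a mitotic kinesin gene that did not pass, and Kif3a (chr11:53567279-53567398, plus), the transport kinesin gene that fell.

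In the 120-base stretch, TTTGAA was present in 8 of the 14 mitotic kinesin genes with a promoter in the table, and in 6.52% of the 32851 mouse promoters there. The edges of this stretch were set after the motif positions were seen, so these shares are no fair comparison. Over 300 bases, from 250 before the start to 50 from it, it was present in 11 of these 14 genes, in 1 of 9 transport kinesin genes and in 17.9% of all promoters. These 11 include Kifc1 and its close copy Kifc5b. A gene was counted if any of its promoters held the motif, while the percentages count single promoters. Of the 11 mitotic kinesin genes that rose and have a promoter there, 10 hold it, and the exception was Kif18a. Kif2c and Kif14 hold it farther upstream, with its first base 103 and 228 bases before the start. Kif20b holds it as a pair of copies, end to end, just inside the start. In the transport class the match was in an alternative promoter of Kif1a, 44 bases upstream. Kif26b, of the other symbols, did not pass and holds it 9 bases upstream, with a CCAAT match 73 bases upstream. Kif24 has the TTCGAA form 26 bases before its start, which 1.56% of all promoters hold over 300 bases. CCAAT was found over 300 bases in 9 of the 14 mitotic genes (both Kifc1 and Kifc5b among them), 3 of 9 transport genes and 37.4% of all promoters. These are matches of letters, and none of them shows that a factor binds there. The promoter table was matched by gene identifier to 30 of the 39 kinesin genes.

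Among the spindle assembly motors, Kif11, the motor that pushes spindle poles apart, had the largest change of the family. Kif11 had log2 signals of 8.24, 8.28 and 8.50 on modified PEEK, against 6.76, 6.94 and 6.86 on pristine PEEK. The groups lay far apart, with modified PEEK replicate 3 the highest array. Kif11 rose by 1.48 ± 0.11 on the log2 scale (SE, n = 3 per surface), 2.80-fold, with an adjusted p of 0.000221 by limma, and was the 35th largest rise of all 19505 genes. Kif15, which helps to keep the spindle bipolar beside Kif11, had 8.15, 8.08 and 8.24 on modified PEEK, against 6.66, 6.95 and 6.73 on pristine PEEK. All 3 arrays of modified PEEK were above all those of pristine PEEK, and the change was 2.60-fold (adjusted p = 0.000271, limma). Kifc1, a motor that walks towards microtubule minus ends and gathers them at the spindle poles, had 6.99, 6.77 and 6.92 on modified PEEK, against 6.20, 6.09 and 6.27 on pristine PEEK. Its rise of 0.70 ± 0.10 (SE, n = 3 per surface; limma adjusted p = 0.00368) was the smallest of the 12 mitotic kinesin genes that passed, and the groups did not overlap.

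Kifc5b is a close mouse copy of Kifc1, and probes may not tell such copies apart, so its values and those of Kifc1 are uncertain as to which copy they measure. Over 272 aligned promoter bases the copies were 87.9% identical, and the TTTGAA match of Kifc5b lies 28 bases further downstream than that of Kifc1. Kifc5b had log2 signals of 6.76, 6.58 and 6.34 on modified PEEK, with a mean of 6.56 ± 0.21, against a highest array of 6.23 and a mean of 6.08 ± 0.13 on pristine PEEK (SD, n = 3). Its arrays did not overlap between the surfaces either, but the difference of 0.48 (95% interval 0.17 to 0.78) did not pass (limma adjusted p = 0.058). Kifc5b did pass in 6 of the 14 alternative settings, so its side of the threshold depends on the processing.

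Of the genes of motors that work on chromosomes and on microtubule ends, 5 of 7 rose, where 5.24% of all genes did. Kif4, a chromosome-bound motor that also acts with Prc1 at the central spindle, had log2 signals of 6.81, 6.83 and 7.33 on modified PEEK, against 5.32, 5.66 and 5.86 on pristine PEEK. It was the most variable of the mitotic genes that passed, with SDs of 0.29 and 0.27, and still rose 2.60-fold (adjusted p = 0.0024, limma). Kif22, which pushes chromosome arms away from the poles, had 7.89, 7.40 and 7.54 on modified PEEK, against 6.56, 6.55 and 6.55 on pristine PEEK. The pristine arrays were nearly equal, the modified ones spread by about as much as those of Kif4, and the change was 1.06 ± 0.13 (SE, n = 3 per surface). Kif18a, which damps the swing of chromosomes at the spindle equator, had 6.80, 6.39 and 6.71 on modified PEEK, against 5.34, 5.61 and 5.51 on pristine PEEK. Kif18b, which shortens astral microtubules, had 7.18, 7.34 and 7.24 on modified PEEK, against 6.44, 6.34 and 6.35 on pristine PEEK. The rises were 2.22-fold for Kif18a and 1.84-fold for Kif18b (limma adjusted p = 0.0013 and 0.000824), with no overlap for either gene.

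The Kif2 genes encode enzymes that take microtubules apart instead of walking on them, and they did not move together. Kif2c, which corrects faulty attachments at centromeres, had log2 signals of 8.59, 8.75 and 8.77 on modified PEEK, against 7.17, 7.36 and 7.45 on pristine PEEK, a rise of 1.38 with a 95% interval of 1.12 to 1.63. Kif2a, which acts at spindle poles and also trims axon branches in neurons, had 8.17, 8.14 and 8.07 on modified PEEK, against 8.14, 8.10 and 8.12 on pristine PEEK. Its arrays overlapped and its difference was 0.01, with a 95% interval of -0.19 to 0.21, which does not reach that of Kif2c. Kif2b lay below the background on both surfaces, at 2.17 ± 0.09 on each (SD, n = 3), so no change could be read for it. The promoter stretch of Kif2a shown above has no capitals, and neither of its promoters in the table held any of the motifs over 300 bases.

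The genes of all 4 central spindle and cytokinesis motors rose more than 2-fold, where 0.995% of all genes rose at least 2-fold. Kif20a, which carries the chromosomal passenger complex to the central spindle, had log2 signals of 9.14, 9.31 and 9.32 on modified PEEK, against 7.63, 7.86 and 7.86 on pristine PEEK. Kif20b, which acts in the completion of cytokinesis, had 9.56, 9.47 and 9.47 on modified PEEK, against 8.12, 8.17 and 8.13 on pristine PEEK. These were tight groups, with SDs of 0.05 and 0.02 for Kif20b, and the rises were 2.79-fold for Kif20a and 2.57-fold for Kif20b. Kif14, which works with citron kinase at the cleavage furrow, had 7.41, 7.46 and 7.64 on modified PEEK, against 6.21, 6.23 and 5.88 on pristine PEEK. Kif23, the motor of the centralspindlin complex, had 9.31, 9.56 and 9.59 on modified PEEK, against 8.23, 8.32 and 8.31 on pristine PEEK. No array of these genes crossed to the other group, and the limma adjusted p ran from 0.00016 for Kif20b to 0.000455 for Kif14, with 2.63-fold for Kif14 and 2.30-fold for Kif23.

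**Figure D1:**
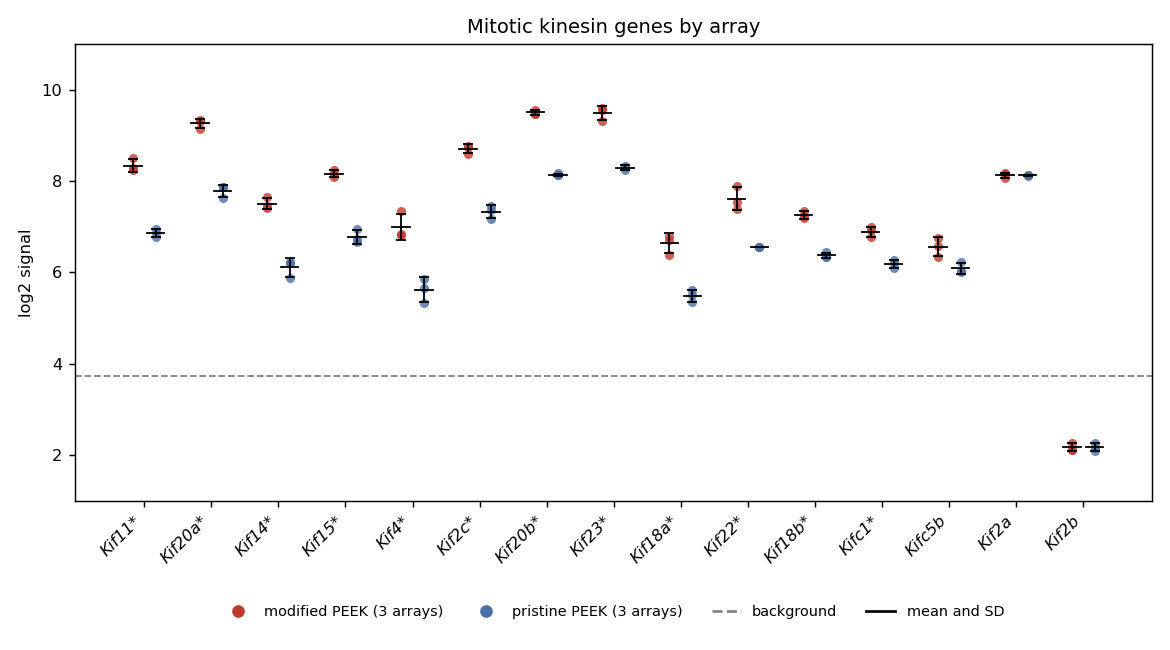
Log2 signal (y axis) of each of the 15 mitotic kinesin genes on the 3 modified PEEK arrays (left, red) and the 3 pristine PEEK arrays (right, blue), with the mean and SD in black and the background of 3.72 as a dashed line; an asterisk marks an adjusted p under 0.05. The groups stand apart for 13 genes and overlap for Kif2a and Kif2b.

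Across the class, 10 of 15 mitotic kinesin genes rose at least 2-fold, where 0.995% of all genes did. The groups did not overlap, with modified PEEK higher, for 13 of 15 mitotic genes, against 14.3% of all genes. The median log2 signal over the 15 genes was 7.46 to 7.89 on the modified PEEK arrays and 6.55 to 6.56 on the pristine PEEK arrays. The 12 genes that passed did so in each of the 14 alternative settings, including each fit with 1 array left out.

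The transport kinesin genes gave another picture. Kif3a and Kif3b form a motor with the accessory protein Kifap3 that carries cargo in cilia and vesicles in the cell body. Kif3a had log2 signals of 7.31, 7.16 and 7.33 on modified PEEK, against 7.94, 8.08 and 8.06 on pristine PEEK. The surfaces were well apart, and Kif3a fell by 0.76 on the log2 scale (95% interval -0.98 to -0.54; adjusted p = 0.00205, limma), a 1.69-fold difference and the 345th largest fall of all genes. With the arrays scaled to the poly-A spikes the fall was 0.51 and no longer passed (adjusted p = 0.0513).

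Its partner Kif3b had log2 signals of 6.22, 5.77 and 5.96 on modified PEEK, against 6.31, 6.53 and 6.36 on pristine PEEK. The groups did not overlap, but the difference of -0.42 (95% interval -0.72 to -0.11) did not pass (limma adjusted p = 0.0939). Without modified PEEK replicate 1 the limma adjusted p was 0.0363, and with other single arrays left out it reached 0.27. Scaled to the poly-A spikes the difference was -0.17 (limma adjusted p = 0.455). Kifap3 had 7.75, 7.48 and 7.58 on modified PEEK, against 7.56, 7.53 and 7.80 on pristine PEEK, so its groups overlapped, with a difference of -0.03 (95% interval -0.30 to 0.24). Kif3c, which can replace Kif3b beside Kif3a, differed by -0.15 (95% interval -0.44 to 0.14) and did not pass. Of the genes of this motor, only Kif3a passed. The 95% interval of Kif3a (-0.98 to -0.54) overlaps that of Kif3b and does not reach those of Kif3c and Kifap3. No test compared the changes between these genes.

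Conventional kinesin is built from the Kif5 heavy chains and the Klc light chains, and in macrophages it is known to move lysosomes outwards. Kif5b, the heavy chain used in most tissues, had log2 signals of 9.23, 9.11 and 9.28 on modified PEEK, against 9.37, 9.30 and 9.38 on pristine PEEK. The arrays of modified PEEK were all slightly lower, and the difference of -0.14 (95% interval -0.36 to 0.07) did not pass (adjusted p = 0.443, limma). Kif5a, a heavy chain gene used mainly in neurons, differed by -0.21 (95% interval -0.45 to 0.02), without overlap and without passing (adjusted p = 0.256, limma). Kif5c, the other neuronal chain, lay below the background on both surfaces, at 3.16 ± 0.32 on modified PEEK and 2.83 ± 0.32 on pristine PEEK (SD, n = 3).

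Among the remaining transport kinesins, Kifc3, a minus-end motor known from epithelial cells, had the largest upward difference. Kifc3 had log2 signals of 6.92, 6.76 and 6.84 on modified PEEK, against 6.41, 6.63 and 6.50 on pristine PEEK. The groups did not overlap, and the difference of 0.33 (95% interval 0.10 to 0.56) did not pass (limma adjusted p = 0.084), though it did in 4 of the 14 alternative settings. Kifc2, a minus-end motor of nerve cell dendrites, had 3.97, 4.30 and 4.21 on modified PEEK, against 4.65, 4.59 and 4.30 on pristine PEEK, just above the background. The highest modified array and the lowest pristine one were equal to the second decimal, and the difference of -0.35 did not pass (adjusted p = 0.151, limma). Kif16b, which moves early endosomes, had 7.30, 7.27 and 7.20 on modified PEEK, against 7.19, 7.17 and 7.01 on pristine PEEK, a difference of 0.14 (95% interval -0.09 to 0.36). Kif21b, which also restrains microtubule growth, differed by 0.06 (95% interval -0.16 to 0.27), and Kif1b, a carrier of mitochondria and synaptic vesicle precursors, by -0.12 (95% interval -0.34 to 0.11).

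The other transport kinesins, Kif1a, Kif13a, Kif13b and Kif21a, had mean differences between -0.0009 and 0.09 and overlapping groups. Kif21a lay below the background, and Kif1a and Kif13a lay next to it, at 4.04 and 3.87 on modified PEEK and 3.99 and 3.87 on pristine PEEK, so changes in them would be hard to see. For the transport class as a whole, the groups did not overlap for 2 genes with modified PEEK higher and 5 with it lower, where 14.3% and 14.5% of all genes did. Differences ran from -0.76 for Kif3a to 0.33 for Kifc3 and Kif5c. Of the mitotic kinesin genes, Kif2a and Kif2b, at 0.007 and -0.003, lay inside this range. Kifc5b and the 12 that passed lay above it, but those 12 were picked for their rise. Kif1c, Kif17 and Kif27 were not analysed here.

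**Figure D2:**
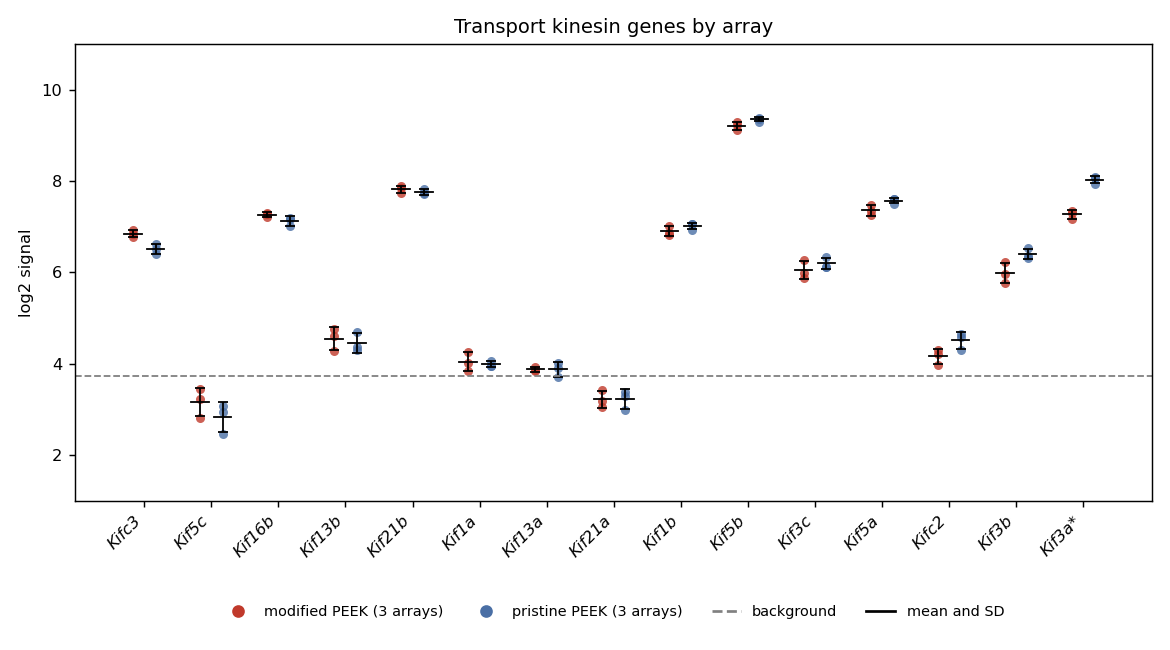
Log2 signal (y axis) of each of the 15 transport kinesin genes on the 3 modified PEEK arrays (left, red) and the 3 pristine PEEK arrays (right, blue), with the mean and SD in black and the background of 3.72 as a dashed line; the asterisk marks an adjusted p under 0.05. Kif3a, at 7.27 on modified PEEK and 8.03 on pristine PEEK, is the gene that passed.

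Kif24 was the 1 gene of 5 in the cilium and signalling class that passed, where 10.4% of all genes passed in either direction. It encodes a motor at centrioles that takes microtubules apart and holds back cilium formation in human cells. Kif24 had log2 signals of 6.60, 6.24 and 6.25 on modified PEEK, against 5.52, 5.63 and 5.63 on pristine PEEK. The groups were apart, with modified PEEK replicate 1 the highest, and Kif24 rose by 0.77 ± 0.12 (SE, n = 3 per surface; 1.70-fold, adjusted p = 0.00541, limma). Kif7, which acts in Hedgehog signalling at the cilium tip, differed by -0.25 with overlapping arrays (95% interval -0.64 to 0.13). Kif19a, a regulator of cilium length, differed by -0.04 and was the most variable gene of the family on modified PEEK, with an SD of 0.43. Kif6 and Kif9, known from motile cilia and sperm tails, lay below the background on both surfaces.

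Of the 4 other symbols, 0 passed by limma, where 10.4% of all genes passed in either direction, and 0 had an unadjusted p under 0.05. Kif26a and Kif26b, kinesin-like proteins of signalling that do not walk, differed by 0.02 and -0.16, and Kif26b lay next to the background, at 3.61 on modified PEEK and 3.78 on pristine PEEK. Kif12 differed by 0.08 (95% interval -0.22 to 0.38). Kif4-ps, a pseudogene of Kif4, had log2 signals of 4.02, 4.51 and 3.90 on modified PEEK, against 3.90, 3.66 and 3.89 on pristine PEEK, near the background. A probe set of a pseudogene may also catch its parent's RNA, which was not tested.

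**Figure D3:**
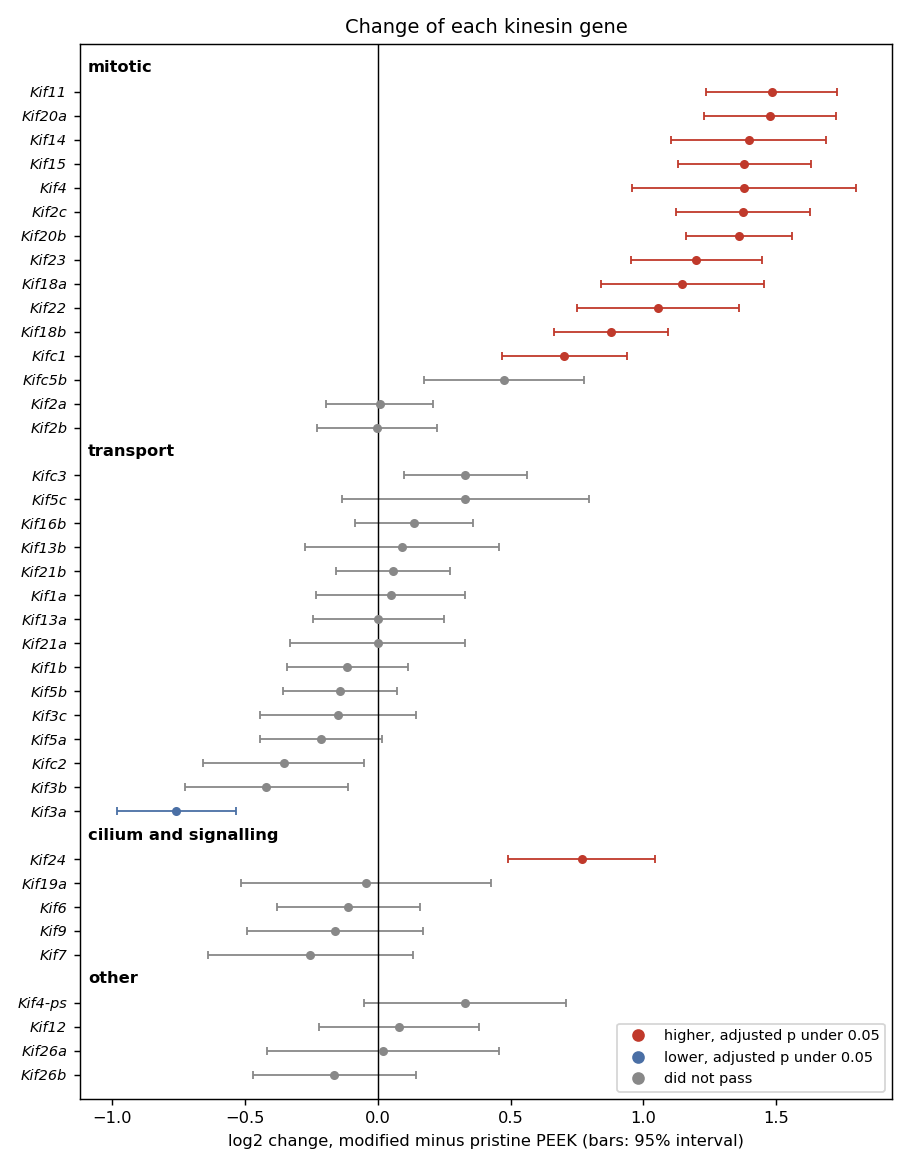
Log2 change, modified minus pristine PEEK (x axis), of all 39 kinesin genes by class, with 95% intervals from limma (n = 3 arrays per surface). Red points rose and the blue point fell at an adjusted p under 0.05, and grey points did not pass; the red points lie between 0.70 and 1.48, with Kif3a at -0.76.

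Transcripts of genes whose proteins work with the mitotic kinesins showed the same direction. Of 11 partner genes measured, 10 rose and 0 fell, where 5.24% of all genes rose and 5.15% fell, and their median log2 change was 1.10. They included Cenpe, a kinetochore kinesin whose symbol lies outside the rule, which had 8.23, 8.31 and 8.61 on modified PEEK, against 7.31, 7.34 and 7.19 on pristine PEEK (2.14-fold, limma adjusted p = 0.00104). Hmmr, a spindle pole protein, rose 2.79-fold, Nusap1, which bundles spindle microtubules, 2.71-fold, Prc1, the cross-linker of the central spindle that Kif4 works with, 2.61-fold, and the kinase gene Aurkb 2.26-fold. Racgap1, the other subunit of centralspindlin beside Kif23, rose 2.26-fold. The exception was Mapre1, the microtubule plus-end protein that Kif18b uses, with 9.27, 9.28 and 9.32 on modified PEEK, against 9.17, 9.09 and 9.17 on pristine PEEK. Its small difference of 0.15 did not overlap between the surfaces and did not pass (adjusted p = 0.378, limma). Whether the division genes and the kinesins rose for a shared reason was not tested.

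Of 11 partner genes of transport kinesins, 0 passed by limma, where 10.4% of all genes passed in either direction. Their median log2 change was -0.04, and 1 was higher and 2 lower at an unadjusted p under 0.05. At that unadjusted threshold 2206 of all 19505 genes were higher and 2218 lower. Plekhm2, which links lysosomes to conventional kinesin, had 8.85, 8.50 and 8.52 on modified PEEK, against 9.10, 8.93 and 8.94 on pristine PEEK. The groups did not overlap, and the difference of -0.37 did not pass (limma adjusted p = 0.111), though it did without modified PEEK replicate 1 (adjusted p = 0.0335). With other single arrays left out the limma adjusted p reached 0.284. Scaled to the poly-A spikes the difference was -0.12 (limma adjusted p = 0.637). The kinesin light chain gene Klc1 differed by -0.01 with overlapping arrays (95% interval -0.23 to 0.21).

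Dynein, the main minus-end motor of the cell, and its cofactor dynactin were measured through 17 genes, of which 1 rose and 1 fell, a share near the 10.4% of all genes that passed in either direction. Both genes were regulators of dynein that bind Lis1 and are close relatives. Nde1, which also acts in mitosis, had log2 signals of 8.05, 7.79 and 7.90 on modified PEEK, against 6.95, 7.12 and 6.76 on pristine PEEK, a rise of 1.96-fold (adjusted p = 0.00196, limma). Ndel1 had 8.90, 8.63 and 8.97 on modified PEEK, against 9.37, 9.37 and 9.42 on pristine PEEK, and fell by 0.55 (adjusted p = 0.0169, limma). The fall of Ndel1 did not pass without pristine PEEK replicate 1, 2 or 3 (adjusted p of 0.0593, 0.0584 and 0.072) or when scaled to the poly-A spikes (0.213). Dynlrb1, a dynein light chain, and Dync1h1, the motor's heavy chain, differed by -0.22 and -0.09 and did not pass. The groups did not overlap, with modified PEEK lower, for 12 of the 17 genes, against 14.5% of all genes, and the median log2 change was -0.15, or 0.0971 with the arrays scaled to the poly-A spikes.

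**Figure D4:**
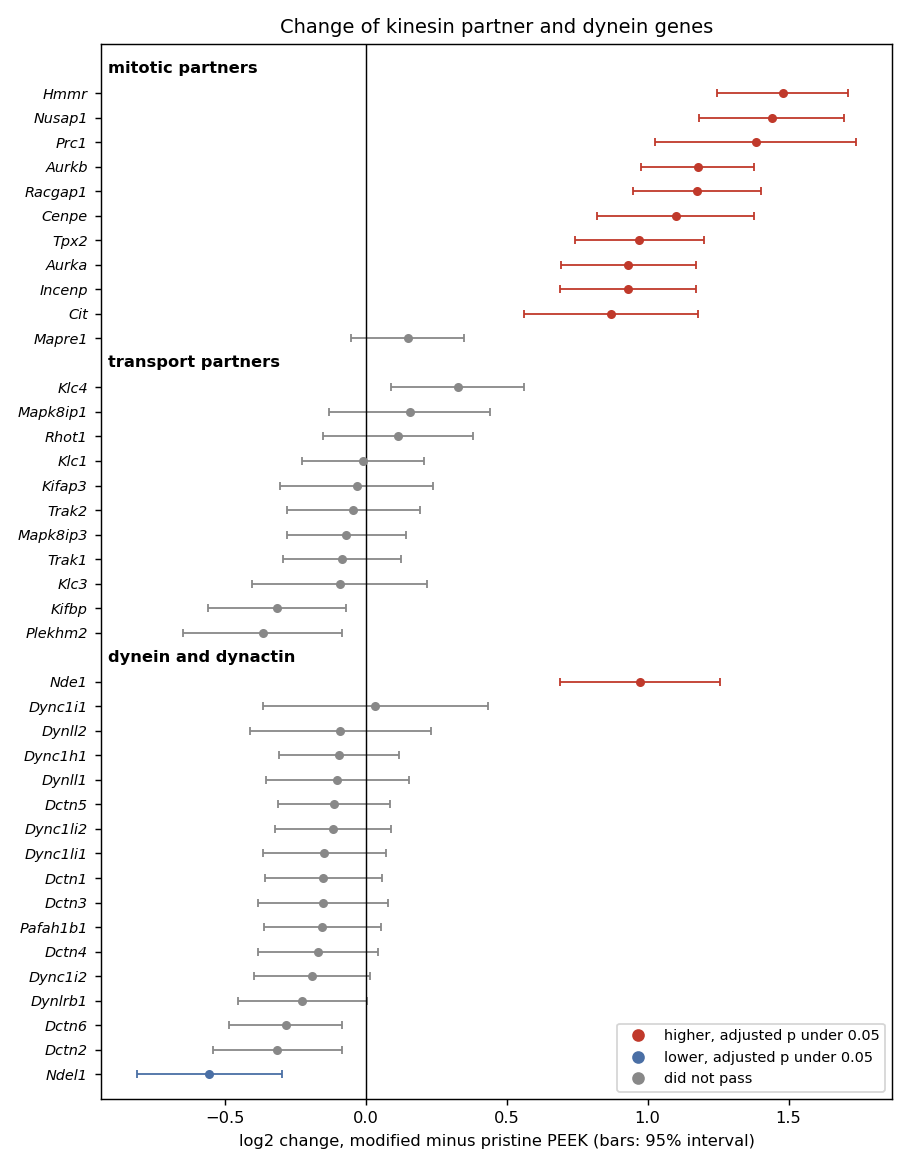
Log2 change, modified minus pristine PEEK (x axis), of 11 partners of mitotic kinesins, 11 partners of transport kinesins and 17 dynein and dynactin genes, with 95% intervals from limma (n = 3 arrays per surface). Red and blue points rose and fell at an adjusted p under 0.05; Nde1 at 0.97 and Ndel1 at -0.55 are the dynein regulators that passed.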

How the data were processed

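RNA of RAW264.7 cells was measured on 6 Affymetrix arrays, 3 per surface, from 250 ng of total RNA labelled as biotinylated cDNA, per the labels' protocols. The authors deposited log2 signals per probe set. The submitters' processing notes list RMA, with neither its version nor its role, and the log2 scale is read from the range of the values. No genome build of the arrays was stated. No column of per-sample values was left out.

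Genes were named through the platform annotation (19572 probe sets with 1 gene). For each gene the probe set of highest mean signal was used, giving 19505 genes, and each of the 39 kinesin genes had a single probe set. limma 3.58.1 (R 4.3.3; lmFit and eBayes, no trend, two-sided) was fitted to all genes and arrays without covariates, with Benjamini-Hochberg adjustment over all genes and a threshold of 0.05. The background is percentile 95 of the receptor genes' means. The fit was tested on simulated data. Promoters are those of RefSeq (GRCm38.p6).

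Members, classes, lists and alternatives were chosen with earlier results of these data known. Named kinesins were those that passed and those not passing among the 10 highest signals of the family. Named partners were, per list, at most 4 passing ones, by size of change, and at most 2 not passing, by signal. Kifc5b, Kifc3, Kifc2, Kif3b, Kifap3, Cenpe, Racgap1 and other members given to describe a class were named after their values were seen, and the 120-base stretch was set after the motif positions were. Alternatives were repeated quantile normalization, median centring, scaling to 24 poly-A spike probe sets, 2 filters on dim genes, averaged probe sets, an intensity trend, the replicate number as a block and leaving out each array.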

Additional observations from a re-analysis of the deposited data

How the results depend on the processing

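The 12 mitotic kinesin genes and Kif24 passed as higher in all 14 alternative settings. Of 476 values of 34 named genes under these settings, 442 kept their direction and side of the threshold, 5 no longer passed, 15 newly passed and 14 changed sign, all 14 in genes that passed neither before nor after. Scaling to the poly-A spikes turned Kif5b to 0.11, Dynlrb1 to 0.023, Dync1h1 to 0.15, Klc1 to 0.24 and Kifap3 to 0.21, repeated quantile normalization turned Kif2a to -0.0020, and median centring turned Klc1 to 0.00022. With 1 array left out at a time, Kif2a ran from -0.015 to 0.038, Klc1 from -0.040 to 0.044 and Kifap3 from -0.11 to 0.054. Scaled to the poly-A spikes, which averaged 6.71 on modified and 6.96 on pristine PEEK, the median change of all genes was 0.26, that of the mitotic genes 1.45 and that of the transport genes 0.25. Relative to all genes these are 1.19 and -0.0097, as without the scaling. Over all genes, 1575 then passed as higher and 290 as lower, beside 1023 and 1004 without it. Then 0 kinesin genes, 0 transport kinesin genes and 0 dynein genes were lower, and 1 transport kinesin gene (Kifc3) and 1 transport partner gene were higher. Kifc3 was also the 1 transport gene higher with repeated quantile normalization, with genes below background left out and with an intensity trend. With the trend, 2 kinesin genes, both transport genes (Kif3a and Kif3b), 1 transport partner and 4 dynein genes were lower and 1 transport partner was higher. Without genes below background, 3 dynein genes were lower and 1 transport partner was higher, and without the lowest 25% of genes 2 dynein genes were lower. Leaving out 1 array at a time gave 1 to 2 kinesin genes lower, 1 to 2 transport kinesin genes lower, 0 to 1 transport partners lower and 0 to 2 dynein genes lower. With the replicate number as a block the counts were again 13 kinesin genes higher and 1 lower. Deviations of same-numbered arrays from their surface means correlated over genes at -0.17, -0.16 and 0.07. With 3 arrays per surface these values cannot show whether the numbers pair the samples, and the labels state no pairing. The cause of these differences was not tested. Genes near the background of 3.72, such as Kif1a and Kif13a, had little room to show a fall.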
